A study of Mus musculus with 16 samples.

Results

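The genes described here encode 39 proteins of the complement, coagulation and fibrinolysis systems that the liver releases into plasma. They are listed by symbol for what their proteins are known to do, by a rule that uses no measured value, although the list was drawn up with earlier results of these data known. All 39 have a row among the 15544 genes of the table. Genes were tested if 4 or more libraries held a value of at least 1, which left 12704 genes and all 39 members. By role, 6 members start the lectin and classical pathways of complement, 2 belong to the step around C3, 6 to terminal complement and 3 are complement inhibitors. On the clotting side, 4 members form the contact system, 5 are the vitamin K-dependent factors and factor V, 4 encode fibrinogen and factor XIII B, 4 are anticoagulants, and 5 act in fibrinolysis or are adhesive plasma proteins.

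Liver RNA was sequenced in bulk from 16 female mice aged 27 weeks, with 4 libraries in each of 4 groups. Controls were Esr1fl/fl females, in which the gene for oestrogen receptor alpha is floxed but intact. Mutants were Esr1Nkx2-1Cre females, which carry the same floxed gene together with a Cre recombinase under the Nkx2-1 promoter. Nkx2-1 is active in part of the hypothalamus, and also in tissues such as thyroid and lung, but is not known to be active in hepatocytes, so the liver was not a target of the deletion. Both genotypes were on the same mixed background, of which CD-1 was a part. Each genotype was kept on chow or was fed a high-fat diet (HFD) for 17 weeks. Mutant females of this line are known for high bone mass, and the liver was profiled as a source of circulating proteins, so the comparisons ask which liver transcripts differed with genotype on each diet and with diet in each genotype. Replicates are named 1 to 4 in the order of the samples, values are always given in that order, and the numbers pair no libraries.

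Complement is a cascade of plasma proteases and binding proteins that marks microbes and damaged cells, recruits leukocytes and ends in a membrane pore. Coagulation is a second protease cascade, which turns fibrinogen into a fibrin mesh and is held in check by anticoagulants and dissolved by plasmin. Hepatocytes make most of the circulating protein of both systems, and several of these genes, among them the fibrinogen genes, C3 and C9, are textbook acute-phase genes that respond to IL-6 or IL-1.

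The values are a length-adjusted signal per gene, close to TPM, whose library totals ran from 905897 to 1119703. The sequencing depth is unknown. Albumin, the defining transcript of hepatocytes, stood between 36044 and 79775 in the 16 libraries. Liver Esr1 stood between 6.14 and 22.9, which does not test the genotype labels. Libraries stood apart in 2 ways. Mutant_Chow replicates 1 and 2 had summed neutrophil and monocyte markers of 2632 and 5748, against 8.36 to 139 in the other 14 libraries (7 of 8 listed markers, Ly6g having no row). In the same libraries 19 acute-phase genes that are not members summed to 32532 and 121099. Control_HFD replicate 1 had an acute-phase sum of 37892, and the remaining 13 libraries had 12184 to 22322. The numbers in the library titles form a lower and a higher series within each diet. On HFD, Mutant_HFD replicate 1 shares the lower-numbered series with 3 controls, while Control_HFD replicate 4 shares the higher-numbered one with 3 mutants. The labels do not say what these numbers stand for. Nothing says whether replicates differ in more than the animal, and p-values measure only the spread between these libraries. The comparisons share libraries with each other, so their results are not independent.

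The upstream sequences of 5 members are shown, because these members carry large differences between single libraries or small p-values in the comparisons below. Not every member with a small p-value is shown. Cfi, with the smallest p on chow, had no window. C8g, with the smallest p between diets in controls, had a window without any of the searched motifs and was left out. Each is the 250 bases before the RefSeq start site on GRCm38.p6, written 5′ to 3′ on the strand of the gene, and capitals mark every letter inside a searched motif. Fga, Fgb and Fgg encode the 3 chains of fibrinogen, C3 is the hub of complement, and C9 forms the ring of the membrane pore. Their windows lie at chr3:83025903-83026152 (plus strand), chr3:83049864-83050113 (minus), chr3:83007474-83007723 (plus), chr17:57228137-57228386 (minus) and chr15:6445096-6445345 (plus). The 2 annotations used here differ for Fga and C9. GENCODE M21 starts these genes at 83026076 and 6445327, so by it the last bases of both windows lie inside the gene. For Fga that part holds the HNF1 half-site.
Fga: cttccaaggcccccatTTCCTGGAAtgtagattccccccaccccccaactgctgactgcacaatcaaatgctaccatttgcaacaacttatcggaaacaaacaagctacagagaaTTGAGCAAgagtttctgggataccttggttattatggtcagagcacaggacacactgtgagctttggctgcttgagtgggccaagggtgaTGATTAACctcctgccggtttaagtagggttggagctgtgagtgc
Fgb: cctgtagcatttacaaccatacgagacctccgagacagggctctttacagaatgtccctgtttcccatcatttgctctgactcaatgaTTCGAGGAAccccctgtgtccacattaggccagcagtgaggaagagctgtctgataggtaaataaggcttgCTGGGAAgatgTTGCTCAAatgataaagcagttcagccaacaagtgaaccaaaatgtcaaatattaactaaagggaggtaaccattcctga
Fgg: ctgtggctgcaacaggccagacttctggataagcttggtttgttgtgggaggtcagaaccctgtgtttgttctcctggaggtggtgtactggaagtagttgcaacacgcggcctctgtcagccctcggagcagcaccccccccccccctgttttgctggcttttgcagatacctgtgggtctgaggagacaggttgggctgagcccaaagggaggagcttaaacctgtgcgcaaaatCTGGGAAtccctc
C3: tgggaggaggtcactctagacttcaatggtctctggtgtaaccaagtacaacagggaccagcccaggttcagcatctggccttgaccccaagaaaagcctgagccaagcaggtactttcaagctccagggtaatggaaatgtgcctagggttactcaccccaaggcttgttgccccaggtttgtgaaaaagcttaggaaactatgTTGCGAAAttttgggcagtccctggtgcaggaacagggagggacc
C9: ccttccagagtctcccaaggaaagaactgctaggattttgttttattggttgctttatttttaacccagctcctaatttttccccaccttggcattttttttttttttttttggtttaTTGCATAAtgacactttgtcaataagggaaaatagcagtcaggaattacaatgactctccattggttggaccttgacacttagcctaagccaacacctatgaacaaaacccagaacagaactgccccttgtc

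The motifs were searched as letters on both strands, with N for any base. CTGGGAA, the type II IL-6 response element, was found in Fgb and Fgg. TTCNNNGAA, the STAT motif, was found in Fga and Fgb. TTGCNNAA, a C/EBP motif, was found in Fga, Fgb, C3 and C9. GTTAATNA, an HNF1 half-site, was found in Fga. In these 5 windows no motif overlapped another. RefSeq windows were given for 30 of the 39 members, and those of the other 9 (C2, C4b, Cfb, Cfi, Kng1, Masp1, Plg, Proc and Serping1) were not analysed here. Of the 30, 8 held TTGCNNAA (26.7%, against 10.8% of 27025 mouse genes with a window of the same length), 6 held TTCNNNGAA (20%, against 8.13%), 5 held GTTAATNA (16.7%, against 2.73%) and 4 held CTGGGAA (13.3%, against 10.4%). The HNF4 motif CAAAGTNCA was found in F9 alone (3.33%, against 1.4%). A match is a description of the letters and not evidence of binding.

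The members spanned a wide range of levels. On the length-adjusted scale, the highest means over the 16 libraries were those of Serpinc1 (antithrombin, the main inhibitor of thrombin) at 3774, C3 at 3269, Fgg at 2792 and Fga at 2708. The lowest were those of C6, a pore component, at 10.6 and Pros1, the protein S cofactor of activated protein C, at 27.3. In controls on chow the members differed little between livers, with a median coefficient of variation of 8.81% over the 39 members (range 4.23% to 50.4%). The same median was 22.7% for Mutant_Chow, 17.9% for Control_HFD and 13.2% for Mutant_HFD. Together the 39 members held between 2.46% and 3.13% of the signal in 14 libraries, 3.69% in Mutant_Chow replicate 1 and 5.32% in replicate 2.

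Several members are neighbours in the genome. Fgg, Fga and Fgb lie in a row on chromosome 3, with 11027 and 6514 bases between them (Fga at chr3:83026076-83033627, GENCODE M21 on GRCm38). Their levels kept nearly fixed proportions, with Fga between 0.873 and 1.04 times Fgg and Fgb between 0.433 and 0.510 times Fgg in every library. The neighbours C8a and C8b, 11.1 kb apart on chromosome 4, encode pore subunits that join C8g, which lies on chromosome 2. Here the proportions were not fixed, and the ratio of C8a to C8g ran from 0.0526 in its lowest library to 0.448 in its highest. F7 and F10 lie 1.5 kb apart, Klkb1 and F11 4.7 kb apart, and Cfb and C2 0.1 kb apart.

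**Figure D1:**
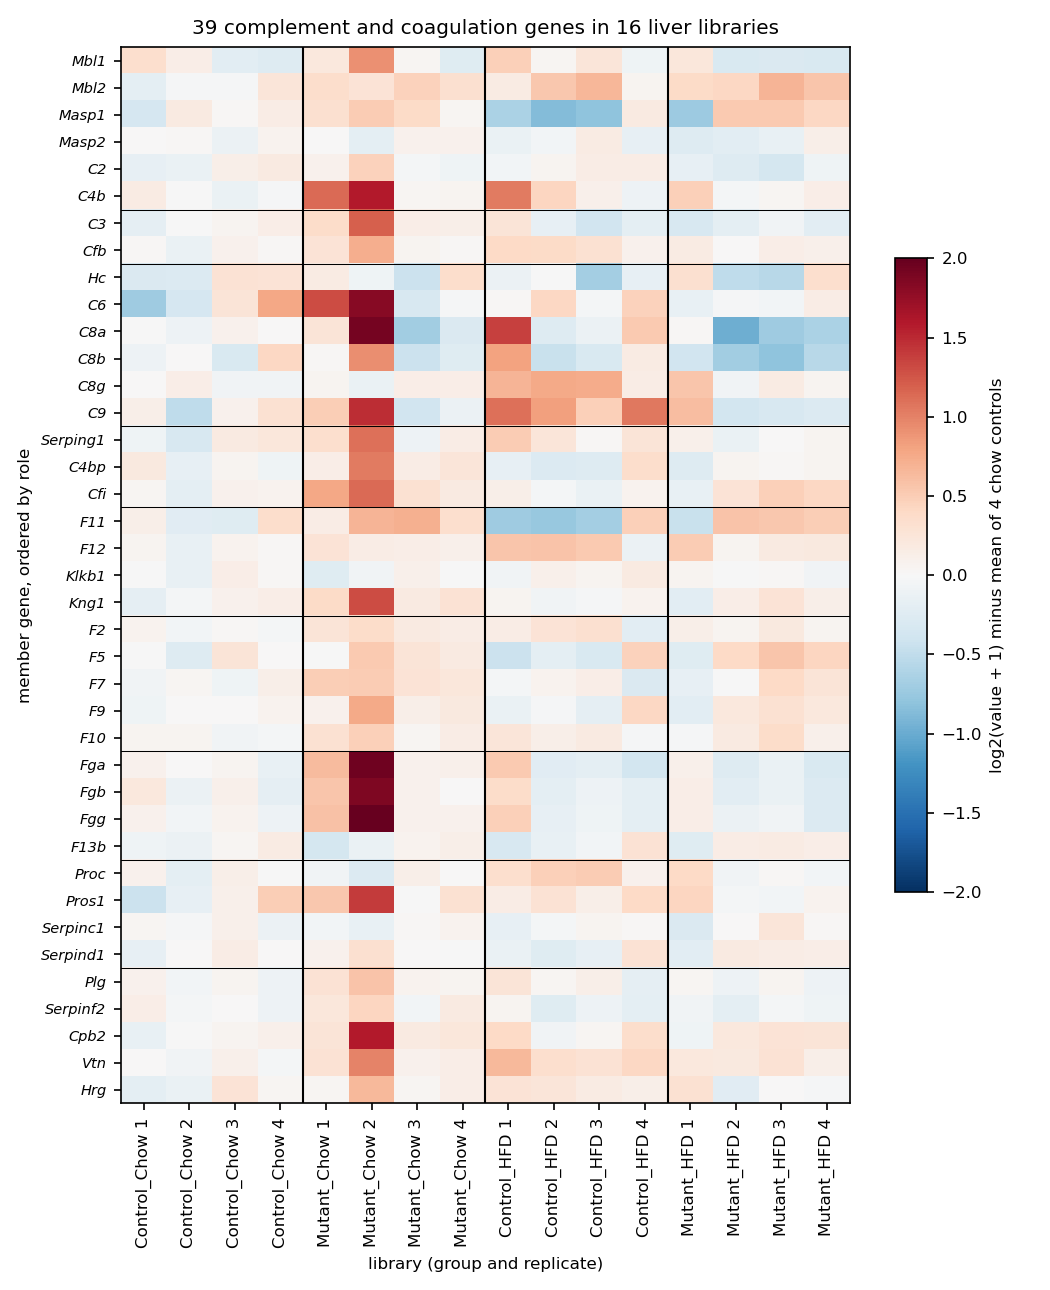
Each row is a member gene and each column a library, and colour gives log2(value + 1) minus the mean of the 4 chow controls, cut at −2 and 2. The column of Mutant_Chow replicate 2 is the darkest red, being the highest of the 16 libraries for 27 of 39 members, and on HFD the blue and red cells of Masp1 and F11 follow the title series.

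On chow, most members stood higher in mutants than in controls. By mean, 33 of 39 were higher and 6 lower, with a median log2 difference of 0.29, against 0.02 over all tested genes. The members with the smallest p-values were Cfi, F7, Kng1 and Mbl2, which stood 1.27 to 1.51 times higher. The differences were not evenly shared by the 4 mutant livers, and Mutant_Chow replicate 2 was the highest of the 16 libraries for 27 members. In bulk tissue a different number of cells of a type and a different amount of RNA per cell cannot be told apart. No member passed the adjusted threshold of 0.05 in limma, as against 0.0236% of all tested genes.

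At an unadjusted limma p under 0.05, 10 members were higher (25.6% of members, against 4.23% of all tested genes) and 0 were lower (against 1.85%). The 10 became 7 with median-of-ratios size factors, 3 with equal totals, and 4 both with equal totals computed without the 20 most abundant genes and in a fit of only the compared groups. The groups did not overlap for 9 members, all higher in mutants (23.1%, against 1.95% of all tested genes), and for 0 members in the lower direction (against 1.09%). These 9 were Mbl2, Cfi, F12, Kng1, F2, F7, F9, Fga and Cpb2. That count also depended on the scaling: it was 6 with median-of-ratios size factors, 4 with equal totals without the 20 most abundant genes and 0 with equal totals. Mbl2, F9 and Fga were apart only as deposited and under none of these 3 scalings. Shares of all genes without overlap or at an unadjusted p under 0.05 were not computed under these scalings. The counts of members given for them therefore cannot be set against all genes. The member median was above 0 under all 4 scalings, and 0.26 to 0.27 above the median of all genes.

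Among the proteins that start complement, Mbl2 encodes the mannose-binding lectin C, which recognises sugars on microbes. Its values were 446, 501, 498 and 600.4 in controls on chow and 649, 612, 697 and 637 in mutants on chow. As deposited, though under no other scaling, the mutants lay above the controls without overlap, by 0.35 (SE 0.14, 95% interval 0.05 to 0.65, limma adjusted p = 0.804). C4b, the thioester protein shared by the lectin and classical pathways, stood at 445, 397, 364 and 391 in controls and at 873, 1201, 409 and 411 in mutants. The mutant group was split, with replicates 1 and 2 at 2.19 and 3.01 times the control mean and replicates 3 and 4 inside the control range, and the difference was 0.70 (SE 0.31, limma adjusted p = 0.804). The near-identical gene C4a was not analysed here, so how the reads were divided between these copies is uncertain. The other members of this role were Mbl1, Masp1, Masp2 and C2, whose log2 differences ran from −0.00 (Masp2) to 0.31 (Masp1) with overlapping groups.

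C3 stood at 2712, 3075, 3202 and 3375 in controls and at 3957, 7076, 3360.2 and 3336 in mutants, a log2 difference of 0.45 (SE 0.21, limma adjusted p = 0.825). Replicate 2 alone was at 2.29 times the control mean, while replicates 3 and 4 lay within the range of the controls. Cfb, the protease subunit of the alternative C3 convertase, followed the same order, with 649, 581, 672 and 643 in controls against 771, 1057, 661 and 646 in mutants.

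In terminal complement the 6 members had log2 differences from −0.00 (Hc, which encodes C5) to 0.70 (C6), and none reached an unadjusted p of 0.05. C9 stood at 107, 69.0, 105 and 122 in controls and at 139, 278, 75.3 and 90.9 in mutants, where replicate 2 was the highest and replicates 3 and 4 lay inside the control range. C8a stood at 52.0, 48.8, 55.6 and 52.5 and at 62.6, 199, 31.7 and 42.5, with replicate 2 at 3.82 times the control mean and replicates 3 and 4 below every control. C6 stood at 4.47, 6.09, 9.64 and 14.3 in controls and at 21.1, 30.6, 6.15 and 7.77 in mutants, a low and scattered range in both groups. C8g, the third C8 subunit, did not follow C8a. Its values were 493, 536, 463 and 466 in controls and 509, 445, 537 and 536 in mutants, with replicate 2 the lowest of the 8.

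Complement inhibitors held the member with the smallest p on chow. Cfi encodes factor I, the protease that cleaves C3b and C4b. It stood at 418, 355, 433 and 429 in controls and at 699, 895, 504 and 459 in mutants, with no overlap, a difference of 0.60 (SE 0.19, 95% interval 0.20 to 1.00, limma adjusted p = 0.677). C4bp, the cofactor of factor I for C4b, stood at 249, 195, 228 and 205 against 239, 451, 242 and 257. Serping1, the C1 inhibitor, stood at 715, 608, 857 and 893 against 959, 1628, 708 and 845. In both of these the group difference rested mainly on replicate 2.

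In the contact system, Kng1 encodes kininogen, the source of bradykinin. It stood at 1295, 1421, 1545 and 1599 in controls and at 1907, 3614, 1657 and 1776 in mutants, all 4 above every control, with a difference of 0.54 (SE 0.20, 95% interval 0.11 to 0.97, limma adjusted p = 0.804). Kng2 is a close copy of Kng1, so the division of reads between them is uncertain. F12, which starts the contact pathway, was 337, 293, 344 and 332 against 395, 363, 359 and 352, again without overlap although the log2 difference was only 0.17 (SE 0.15, limma adjusted p = 0.954). Klkb1, the precursor of plasma kallikrein, differed by −0.05 with overlapping groups.

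All 5 vitamin K-dependent and common pathway members were higher, by 0.24 to 0.38 on the log2 scale. F7 encodes the factor that tissue factor activates. Its values were 109, 118, 109 and 125 in controls and 162, 164, 139 and 135 in mutants, without overlap, a difference of 0.38 (SE 0.13, 95% interval 0.10 to 0.65, limma adjusted p = 0.755). F2 (prothrombin) stood at 1351, 1233, 1299 and 1245 against 1531, 1657, 1450.4 and 1425, and F9 at 80.7, 86.3, 86.6 and 90.6 against 91.7, 146, 93.5 and 98.1. Both pairs of groups were apart, although the nearest F9 values, 90.6 and 91.7, almost met.

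The fibrinogen genes, with C8a and C6, had the widest relative spread among mutants on chow. Fga stood at 2402, 2281, 2352 and 2044 in controls and at 3508, 8711, 2411 and 2444 in mutants. Fgg stood at 2443, 2200.4, 2409 and 2130.1 against 3428, 9084, 2432 and 2429.9, and Fgb at 1245, 988, 1148 and 946 against 1579.9, 3934, 1145 and 1076. Replicate 2 was at 3.84, 3.96 and 3.64 times the control mean for Fga, Fgg and Fgb, and replicate 1 at 1.55, 1.49 and 1.46 times. Replicates 3 and 4 lay close to the controls, so that the Fga groups were apart only by 2402 against 2411, and the group differences of 0.69 (SE 0.32, limma adjusted p = 0.814) for Fga, 0.68 (SE 0.32, limma adjusted p = 0.814) for Fgg and 0.63 (SE 0.31, limma adjusted p = 0.832) for Fgb had wide intervals. F13b, the carrier subunit of the fibrin-crosslinking factor XIII, differed by −0.07.

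Of the anticoagulants, Serpinc1 was nearly level across groups at 3918, 3749.6, 4064 and 3495 in controls and 3640.4, 3439, 3866 and 3971 in mutants, a difference of −0.03 (SE 0.13, 95% interval −0.31 to 0.26, limma adjusted p = 0.9995). Mutant replicate 2, the highest library for most members, held the lowest Serpinc1 value of the 8 chow libraries. Proc and Serpind1 differed by −0.05 and 0.10, and Pros1, measured at low levels, by 0.56 (SE 0.25, limma adjusted p = 0.804). Pros1 stood at 16.2, 19.6, 24.0 and 31.8 in controls and at 32.8, 60.1, 22.0 and 27.7 in mutants, and the groups overlapped. All 5 fibrinolysis and adhesive genes were higher by mean, by 0.19 to 0.56, with Plg (plasminogen) at 0.25 and Hrg (histidine-rich glycoprotein) at 0.21. Of these, Cpb2, which encodes an inhibitor of fibrinolysis, stood at 230.1, 253, 264 and 275 against 304, 764, 288 and 297, without overlap. Serpinf2, the plasmin inhibitor, stood at 883, 787, 816 and 750.4 against 941, 1083, 776 and 920.0, with overlap, and Vtn (vitronectin) differed by 0.38 (SE 0.17, limma adjusted p = 0.806).

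**Figure D2:**
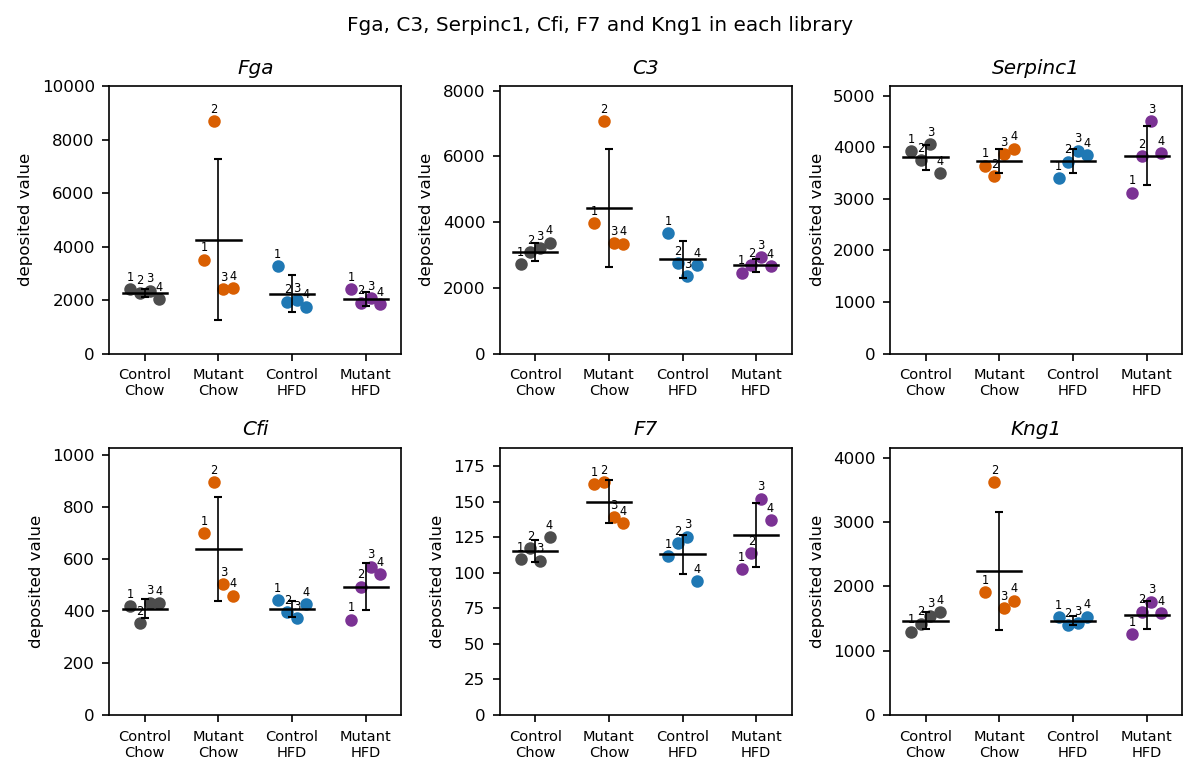
Points are the deposited values of single libraries with the replicate number above each, on axes that start at 0, and bars are group means with the SD over 4 libraries. Mutant_Chow replicate 2 stands far above the rest for Fga and C3, all 4 chow mutants lie above the chow controls for Cfi, F7 and Kng1, and Serpinc1 is level.

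Markers of some other cells moved with these members on chow. All 7 neutrophil and monocyte markers were higher at an unadjusted limma p under 0.05, as were 2 of 9 Kupffer cell and macrophage markers and 9 of 19 acute-phase genes, and 0 of 10 hepatocyte markers differed at that p in either direction. All 4 tested platelet and megakaryocyte markers (of 6 listed, Gp9 and Gp1bb having no row) were higher by mean, 2 of them at that p, with a median of 0.67. Their sum was 12.9 to 18.5 in mutants on chow against 6.22 to 10.6 in controls on chow, so that all 4 mutants, replicates 3 and 4 included, lay above the controls. These are low sums over 4 genes, and they were compared only as deposited. The other sums were highest in Mutant_Chow replicates 1 and 2 for neutrophils and monocytes, at the levels given above, and for Kupffer cells and macrophages, where the 16 libraries ran from 134 to 706. No endothelial (8), stellate and fibroblast (8), lymphocyte (6), cholangiocyte and gallbladder (5) or red cell (6) marker had an unadjusted p under 0.05. Their median log2 differences were 0.17, −0.06, 0.32, 0.02 and 0.27 in that order. The part of any of these cells in the member differences was not tested. Without Mutant_Chow replicates 1 and 2, the member median on chow was 0.09 and 1 member had an unadjusted p under 0.05. Without replicate 2 alone the median was 0.14 with 4 such members, and without replicate 1 alone it was 0.31 with 6. Without replicate 3 there were 17 such members and without replicate 4 there were 15. Leaving out control 1, 2, 3 or 4 gave 5, 4, 3 and 7. The share of all genes at that p was not computed without these libraries. The counts therefore cannot be set against all genes. Replicates 3 and 4 on their own lay above all 4 controls for 10 members (Mbl2, Masp2, Cfi, F12, Kng1, F2, F7, F9, Fga and Cpb2), against 6.91% of all tested genes. They lay below them for C8a alone, against 6.4%. All of the 10 but Masp2 were already apart with all 4 mutants, so they had to appear here and the count is no separate result. It was added after the data were seen and made only as deposited. Within the lower-numbered title series on chow the member median was 0.31, and within the higher-numbered series 0.24, with 32 of 39 members higher in each. Each of these series holds 1 of the libraries that stood apart.

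**Figure D3:**
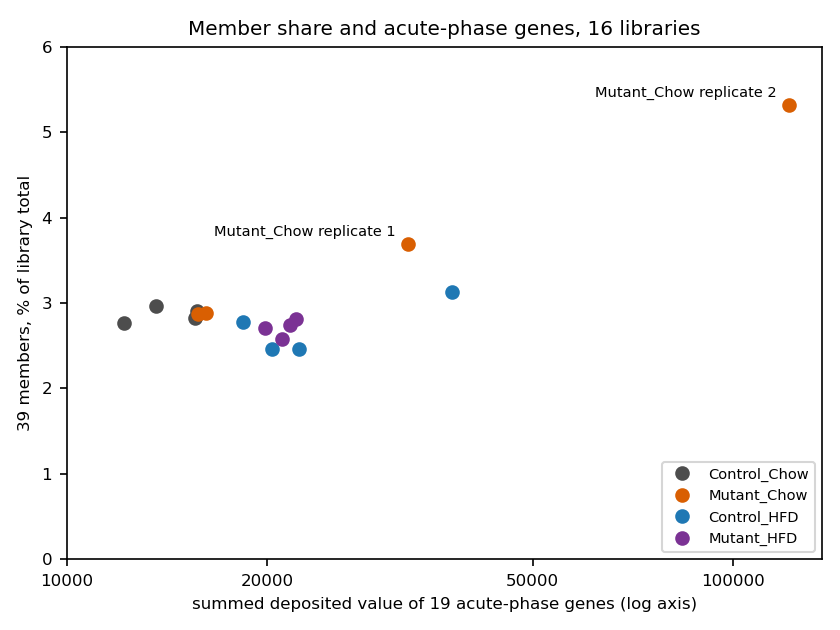
Each point is a library, with the summed value of 19 acute-phase genes that are not members on a log axis and the share of the library total held by the 39 members on the vertical axis. Mutant_Chow replicates 1 and 2 hold 3.69% and 5.32%, and Control_HFD replicate 1, with an acute-phase sum of 37892, holds 3.13%.

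On HFD, members did not stand on 1 side. By mean, 15 of 39 were higher in mutants and 24 lower, with a median of −0.08 against 0.02 over all tested genes. C9, C8g, C8b and C2 were lower in mutants and Masp1 and F11 were higher, at unadjusted p-values under 0.05, and none passed the adjusted threshold (against 0.0157% of all tested genes). The 2 higher members compare with 4.77% of all tested genes and the 4 lower with 3.83%. The groups did not overlap for 0 members in the higher direction (against 1.39%) and for C2 and Vtn in the lower direction (against 1.31%). Leaving out Mutant_HFD replicate 2, 3 or 4 left 1, 2 and 2 members at an unadjusted p under 0.05, leaving out Control_HFD replicate 1, 2 or 3 left 3, 4 and 3, and leaving out Mutant_HFD replicate 1 gave 9. With equal totals the member median was 0.00 against 0.09 over all genes, no pair of groups was apart, and 3 members were higher and 2 lower at that p. Shares of all genes for these counts were computed neither with equal totals nor with a library left out. Relative to all genes the member median lay between −0.08 and −0.10 under the 4 scalings.

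C9 was 213, 174, 137 and 205 in controls and 152, 76.6, 78.8 and 81.1 in mutants, a difference of −0.95 (SE 0.34, 95% interval −1.66 to −0.23, limma adjusted p = 0.544). Mutant replicates 2 to 4 lay below every control, and replicate 1 lay inside the control range. C8b, which forms the pore intermediate with C8a and C8g, was 62.1, 25.6, 28.4 and 39.4 in controls and 26.9, 21.3, 19.8 and 23.7 in mutants, a difference of −0.66 (SE 0.29, limma adjusted p = 0.573). C8a was 135, 43.3, 48.0 and 75.3 against 52.9, 26.0, 31.5 and 33.2, with a wide interval, at −0.95 (SE 0.45, 95% interval −1.91 to 0.01, limma adjusted p = 0.577). C8g was 780.1, 823, 814 and 542 in controls and 722, 466, 548 and 510.0 in mutants, a difference of −0.40 (SE 0.15, 95% interval −0.73 to −0.07, limma adjusted p = 0.558). Here Control_HFD replicate 4 sat with the mutants and Mutant_HFD replicate 1 sat close to the other controls.

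Masp1 encodes a protease that mannose-binding lectins carry. It stood at 33.8, 28.7, 30.0 and 60.2 in controls and at 31.6, 76.8, 77.2 and 71.2 in mutants, a difference of 0.72 (SE 0.27, 95% interval 0.14 to 1.29, limma adjusted p = 0.552). F11, the contact factor that activates factor IX, stood at 42.6, 41.2, 43.7 and 99.0 in controls and at 51.7, 105, 104 and 100.3 in mutants, a difference of 0.71 (SE 0.28, 95% interval 0.12 to 1.31, limma adjusted p = 0.558). In both genes the libraries formed a low and a high cluster, and each cluster held 3 libraries of one genotype and 1 of the other. C2, the protease subunit of the classical C3 convertase, differed without overlap, from 87.6, 94.7, 101 and 101 in controls to 80.6, 75.7, 71.2 and 85.6 in mutants, by −0.29 (SE 0.12, 95% interval −0.56 to −0.03, limma adjusted p = 0.573). Vtn was 2837, 2292, 2206 and 2397 against 2101, 2067, 2205 and 1959.7, apart only by 2206 against 2205, by −0.22 (SE 0.17, limma adjusted p = 0.677).

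Mbl1, the mannose-binding lectin A, was 173, 127, 146 and 116 in controls and 144, 99.2, 101 and 99.3 in mutants, a difference of −0.34 (SE 0.22, limma adjusted p = 0.635), where Mutant_HFD replicate 1 stood above the other mutants. The fibrinogen genes, C3, F2, F10, Serpinc1 and Serpinf2 were close to level between genotypes on HFD, with log2 differences from −0.09 to 0.03. For Fga the values were 3268, 1942, 1988 and 1753 in controls and 2419, 1899, 2066 and 1836 in mutants, and the interval of the difference, −0.09 (SE 0.32, 95% interval −0.77 to 0.60, limma adjusted p = 0.944), still allows a change in either direction. Control_HFD replicate 1 was the highest HFD library for Fga, Fgb, Fgg and C3. That library also had the largest acute-phase sum on HFD, but its neutrophil and monocyte sum of 13.8 was within the range of the chow controls.

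**Figure D4:**
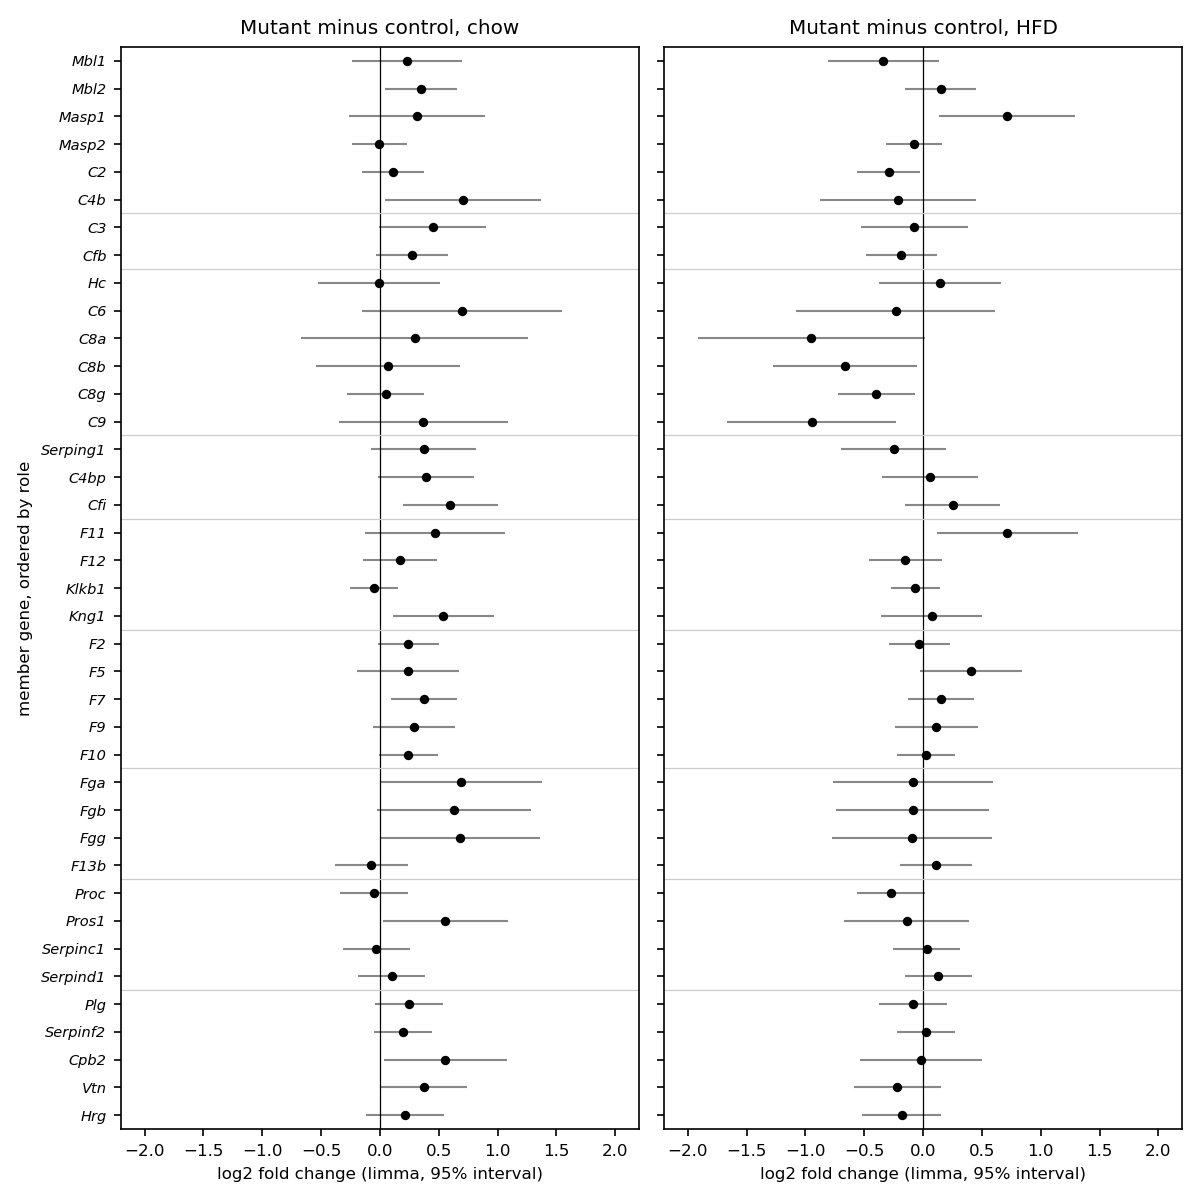
Points are limma log2 fold changes, mutant minus control, for each member on chow (left) and HFD (right), and lines are 95% intervals. On chow 33 of 39 points lie right of 0, and on HFD 15 do, with Masp1 and F11 farthest to the right and C8a and C9 farthest to the left.

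The HFD libraries also differed by title series, in the members at about the rate of all genes. As found after the data were seen and with genotype in the fit, 6 members were higher in the higher-numbered series at a limma adjusted p under 0.05 (Masp1, F11, F5, F9, F13b and Serpind1), 15.4% of members against 13.5% of all tested genes, and 3 were lower (C8g, F12 and Proc), 7.69% against 11.6%. The split is described here because it touches those with the smallest p-values for genotype. Masp1 ran from 28.7 to 33.8 in the lower-numbered series and from 60.2 to 77.2 in the higher, a difference of 1.08 (SE 0.15, limma adjusted p = 4.39e-04). F11 ran from 41.2 to 51.7 and from 99.0 to 105, a difference of 1.09 (SE 0.15, limma adjusted p = 5.46e-04). F5, the cofactor of factor Xa, ran from 94.1 to 110.1 and from 167 to 188, a difference of 0.74 (SE 0.11, limma adjusted p = 7.89e-04).

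In the other direction, C8g ran from 722 to 823 in the lower-numbered series and from 466 to 548 in the higher, a difference of −0.54 (SE 0.10, limma adjusted p = 0.00209). F12 ran from 463 to 486 and from 301 to 374, a difference of −0.51 (SE 0.10, limma adjusted p = 0.0025). Proc, which encodes the anticoagulant protein C, ran from 519.5 to 586 and from 393 to 437, a difference of −0.39 (SE 0.11, limma adjusted p = 0.0234). On chow, 0 of 39 members passed limma's adjusted threshold for the same split, and 3 (Klkb1, F5 and F13b) had an unadjusted p under 0.05. The share of all genes at that p was not computed for this split.

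Within a title series the genotype difference of these 9 members ran from −0.16 to 0.28 in the lower-numbered series and from −0.17 to 0.31 in the higher. For Masp1 it was 0.04 in the lower-numbered series, where 1 mutant meets 3 controls, and 0.31 in the higher, where 3 mutants meet 1 control. For F11 it was 0.28 and 0.06, and for C8g −0.16 and −0.10. For F12 it was −0.05 and 0.26, of opposite sign, against −0.15 over both series. C9, which is not among the 9, was at −0.18 in the lower-numbered series and −1.37 in the higher, where the 3 mutants stood between 76.6 and 81.1 and the control at 205. C8a was likewise at −0.31 and −1.29. Each within-series difference rests on 1 library on 1 side and has no test. The member median was −0.10 in the lower-numbered and −0.01 in the higher-numbered series. With title series as a term in the fit, 0 members passed the limma adjusted threshold for genotype on HFD and 1 had an unadjusted p under 0.05.

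**Figure D5:**
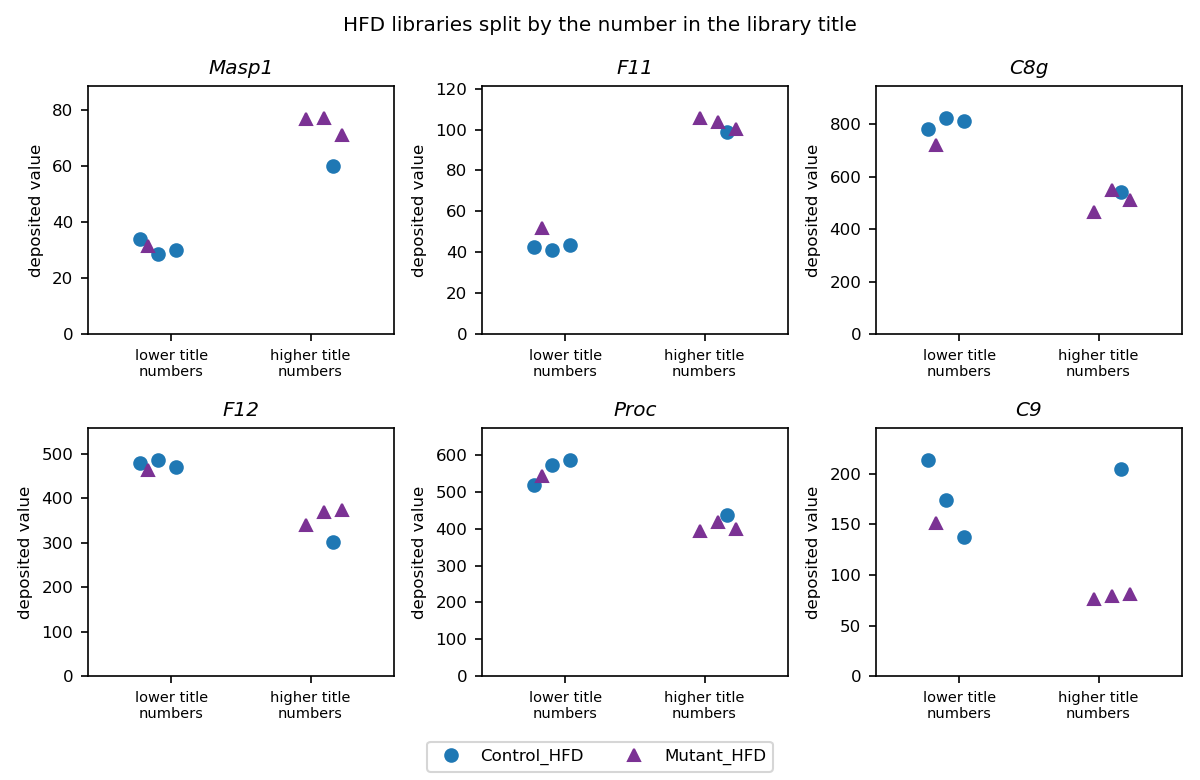
Deposited values of 6 members in the 8 HFD libraries, split by title series on the horizontal axis, with circles for controls and triangles for mutants. Masp1 and F11 are high and C8g, F12 and Proc low in all 4 higher-numbered libraries, whatever the genotype, while for C9 the control of that series stands at 205 with the lower-numbered libraries.

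The 2 libraries that lie in the series of the other genotype had the lowest weights of all when limma weighted libraries by their fit, at 0.228 for Control_HFD replicate 4 and 0.329 for Mutant_HFD replicate 1. With those weights 12 members passed the adjusted threshold for genotype on HFD, 6 higher and 6 lower, against 30.9% of all tested genes. Without both libraries 8 members passed (Masp1, F11, F5 and Serpind1 higher, C8g, C9, F12 and Proc lower), against 21.2%. Without Mutant_HFD replicate 1 alone, Masp1 passed, at 1.02 with a limma adjusted p of 0.0354, against 1.11%. In the fit without both libraries every remaining control is from the lower-numbered series and every remaining mutant from the higher, so genotype and series cannot be told apart there. The weighted fit gives the same 2 libraries the least part, so it largely shares this limit.

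Controls on HFD had higher values of some members and lower values of others than controls on chow. By mean, 25 of 39 were higher on HFD and 14 lower, with a median of 0.06 against −0.01 over all tested genes. Members with the smallest p-values were C8g, F12, C9 and Proc, all higher by 0.35 to 0.86 on the log2 scale. No member passed the limma adjusted threshold (0% of all tested genes did either). At an unadjusted p under 0.05, 6 members were higher (against 6.4% of all tested genes) and 0 lower (against 6.52%). The groups did not overlap for Cfb, C8g, C9 and Vtn, all higher (against 3.38%), and for 0 members in the lower direction (against 2.98%).

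C8g was 493, 536, 463 and 466 in controls on chow and 780.1, 823, 814 and 542 in controls on HFD, a difference of 0.58 (SE 0.15, 95% interval 0.25 to 0.91, limma adjusted p = 0.202). Control_HFD replicate 4 was the closest to the chow libraries. F12 was 337, 293, 344 and 332 on chow and 481, 486, 470.0 and 301 on HFD, a difference of 0.39 (SE 0.15, 95% interval 0.07 to 0.70, limma adjusted p = 0.301), and here replicate 4 fell inside the chow range. Proc was 439, 359, 448 and 411 on chow and 519.5, 572, 586 and 437 on HFD, a difference of 0.35 (SE 0.14, 95% interval 0.06 to 0.64, limma adjusted p = 0.313), with replicate 4 again within the chow range. C9 was 107, 69.0, 105 and 122 on chow and 213, 174, 137 and 205 on HFD, all 4 above every chow control, a difference of 0.86 (SE 0.34, 95% interval 0.14 to 1.58, limma adjusted p = 0.313). In C9 replicate 4 stood with the other HFD controls.

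Mbl2 and Vtn were the remaining members with an unadjusted p under 0.05. Mbl2 stood at 571, 738, 810.0 and 526 on HFD, of which replicates 1 and 4 lay inside the chow range, a difference of 0.36 (SE 0.14, limma adjusted p = 0.318). Vtn, an adhesive protein that also blocks pore insertion, stood at 1818, 1727, 1939 and 1752 on chow and 2837, 2292, 2206 and 2397 on HFD, by 0.42 (SE 0.17, limma adjusted p = 0.324). Cfb stood at 837, 825, 782 and 672 on HFD, all above the chow controls, by 0.29 (SE 0.14, limma adjusted p = 0.412). The fibrinogen genes differed by −0.06 to 0.01. Masp1 and F11 differed most in the lower direction, with overlapping groups. Masp1 was at −0.53 (SE 0.27, limma adjusted p = 0.422) and F11 at −0.42 (SE 0.28, limma adjusted p = 0.535). The contact members Klkb1 and Kng1 differed by 0.07 and 0.01.

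Scaling and single libraries decided part of this comparison. Leaving out Control_Chow replicate 2 left 2 members at an unadjusted p under 0.05, leaving out Control_HFD replicate 1, 2 or 3 left 3 each, and leaving out Control_HFD replicate 4 gave 9. With equal totals the median of all genes moved by more than 0.1 to −0.16 and the member median to −0.12. There the p under 0.05 was met by 1 higher and 2 lower members. F7 and Serpinf2 were apart in the lower direction and none in the higher. Shares of all genes for these counts were computed neither with equal totals nor with a library left out. Relative to all genes the member median was 0.07 as deposited and 0.04 with equal totals. Without Control_HFD replicate 4, C8g and F12 passed the limma adjusted threshold, at 0.72 with a limma adjusted p of 0.0174 and 0.55 with a limma adjusted p of 0.0197, against 7.28% of all tested genes. With library weights 9 of 39 members passed, 7 higher and 2 lower, against 17.8%. Without both Control_HFD replicate 4 and Mutant_HFD replicate 1, 6 of 39 passed, about the rate of all tested genes (14.8%). Each title series lies within a single diet, so diet and series cannot be told apart.

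Mutants on HFD had lower values of most members than mutants on chow. By mean, 31 of 39 were lower on HFD and 8 higher, with a median of −0.26 against −0.01 over all tested genes. C3, Fga, C2 and Serpinf2 had the smallest p-values, and none passed the limma adjusted threshold, as did 0% of all tested genes. At an unadjusted p under 0.05, 9 members were lower (against 4.16% of all tested genes) and 0 higher (against 2.71%). The groups did not overlap for C2, C3 and C4bp, all lower on HFD (against 1.86%), and for 0 members in the higher direction (against 1.67%). Apart in the lower direction were 4 members with median-of-ratios size factors, 6 with equal totals and 3 with equal totals without the 20 most abundant genes. C3 and C4bp were among them each time, and C2 only with median-of-ratios size factors. Shares of all genes were not computed under these scalings.

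C3 stood at 3957, 7076, 3360.2 and 3336 in mutants on chow and at 2459.9, 2685, 2940.5 and 2667 in mutants on HFD, without overlap, a difference of −0.65 (SE 0.21, 95% interval −1.10 to −0.19, limma adjusted p = 0.623). C2 stood at 97.0, 125, 88.8 and 85.8 on chow and at 80.6, 75.7, 71.2 and 85.6 on HFD, apart only by 85.8 against 85.6, by −0.32 (SE 0.12, 95% interval −0.59 to −0.06, limma adjusted p = 0.657). Fga stood at 3508, 8711, 2411 and 2444 on chow and at 2419, 1899, 2066 and 1836 on HFD, with Mutant_HFD replicate 1 overlapping the 2 lower chow mutants, by −0.84 (SE 0.32, 95% interval −1.53 to −0.16, limma adjusted p = 0.65). Serpinf2 stood at 941, 1083, 776 and 920.0 on chow and at 768, 707, 783 and 760.2 on HFD, by −0.29 (SE 0.12, 95% interval −0.54 to −0.05, limma adjusted p = 0.687). In all 4 genes the highest values were those of chow replicates 1 and 2, the libraries with the high neutrophil, monocyte and acute-phase sums. Without both, 0 members had an unadjusted p under 0.05 in limma and the member median was −0.05, and without replicate 2 alone 1 member did, with a median of −0.12. Leaving out Mutant_Chow replicate 3 or 4 gave 16 and 15 such members, and leaving out Mutant_HFD replicate 2 or 4 gave 3 and 5. Shares of all genes at that p were not computed with libraries left out, so these counts cannot be set against them.

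Whether the genotype difference depended on diet was tested as an interaction. For 32 of 39 members the mutant-minus-control difference was lower on HFD than on chow, with a median of −0.35 against −0.01 over all tested genes. No member passed the limma adjusted threshold, as did 0% of all tested genes. At an unadjusted p under 0.05, 4 members had a lower difference on HFD (against 2.42% of all tested genes) and 0 a higher one (against 1.79%). The 4 became 1 with equal totals, 1 with equal totals without the 20 most abundant genes and 0 with the title series as a term. As deposited these were C9, Vtn, Cfb and C2. Several other lists moved the same way. The interaction was below 0 for 19 of 19 acute-phase genes (median −1.36, 5 at an unadjusted p under 0.05). It was below 0 for 7 of 7 neutrophil and monocyte markers (median −2.68, 1 at that p). The same held for 9 of 9 Kupffer cell and macrophage markers (median −0.65, 1 at that p). It held too for 4 of 4 platelet and megakaryocyte markers (median −0.84, 3 at that p). Of the hepatocyte markers 7 of 10 were below 0, with a median of −0.08 and 0 at that p. Of 20 listed regulators of hepatocytes and the IL-6 response, 10 were below 0, 3 of them at that p. Lymphocyte and red cell markers were below 0 for 6 of 6 each. Endothelial and stellate and fibroblast markers were so for 4 of 8 each, and cholangiocyte and gallbladder markers for 3 of 5. None of these last 5 lists had a marker at that p. The part of these genes' cells in the member result was not tested.

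For C9 the interaction was −1.31 (SE 0.48, 95% interval −2.33 to −0.30, limma adjusted p = 0.895), with group means of 101 ± 22.4 and 146 ± 92.0 on chow and 182 ± 34.5 and 97.0 ± 36.4 on HFD (SD, n = 4, controls before mutants). For Vtn it was −0.59 (SE 0.24, 95% interval −1.11 to −0.08, limma adjusted p = 0.895), with means of 1809 ± 94.5 and 2428 ± 794 on chow and 2433 ± 280.4 and 2083 ± 101 on HFD. For Cfb it was −0.46 (SE 0.20, limma adjusted p = 0.895) and for C2 −0.40 (SE 0.18, limma adjusted p = 0.895). Cfb stood at 837, 825, 782 and 672 in controls and 716, 636, 694 and 685 in mutants on HFD, so that the order of genotypes seen on chow was turned by mean while the groups overlapped. Leaving out Mutant_Chow replicate 3 or 4, or Mutant_HFD replicate 1, gave 12, 11 and 11 members at an unadjusted p under 0.05. Leaving out Control_HFD replicate 4 gave 8, and leaving out Control_HFD replicate 1, Control_Chow replicate 2 or Mutant_HFD replicate 2 or 3 left 2. Shares of all genes at that p were not computed with libraries left out, so these counts cannot be set against them. Without Mutant_Chow replicates 1 and 2 the member median was −0.18 with 0 members at an unadjusted p under 0.05, and without Mutant_HFD replicate 1 and Control_HFD replicate 4 it was −0.42 and Masp1, C8g, F11 and F12 passed the limma adjusted threshold, against 7.19% of all tested genes. With equal totals the median of all genes moved by more than 0.1 to 0.13 and the member median to −0.18, which leaves the members 0.31 below all genes, against 0.33 as deposited.

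Other genes of these systems were followed as lists of 30 further complement and 35 further coagulation and fibrinolysis genes, of which 23 and 31 were tested. On chow, 19 of 23 and 28 of 31 were higher in mutants, with medians of 0.27 and 0.15. Of them 2 and 7 had an unadjusted p under 0.05, all higher (against 4.23% of all tested genes). The smallest p-values were those of Serpina10, the inhibitor that acts with protein Z, at 0.71 (SE 0.28, limma adjusted p = 0.804), and Kng2 at 0.43 (SE 0.17, limma adjusted p = 0.804). Plaur, the urokinase receptor, followed at 0.84 (SE 0.34, limma adjusted p = 0.804), from a mean of 0.649 in controls to 2.47 in mutants, which is at the edge of the filter. Fgl1, a fibrinogen-like protein made by hepatocytes, came next at 1.38 (SE 0.56, limma adjusted p = 0.804). On HFD, 12 of 23 and 19 of 31 were higher in mutants. At an unadjusted p under 0.05, 1 and 2 were higher (against 4.77% of all tested genes) and 1 and 1 lower (against 3.83%). Tfpi2, a protease inhibitor related to the tissue factor pathway inhibitor, was at 0.76 (SE 0.26, limma adjusted p = 0.527). Between diets in controls, 2 and 3 were higher (against 6.4% of all tested genes) and 1 and 4 lower (against 6.52%) at that p. Vkorc1, the vitamin K reductase, was at 0.37 (SE 0.10, limma adjusted p = 0.205). Between diets in mutants, 1 and 0 were higher (against 2.71% of all tested genes) and 0 and 1 lower (against 4.16%) at that p. Cd59a, which blocks the membrane pore, was at 0.41 (SE 0.12, limma adjusted p = 0.592). In the interaction Vkorc1 had the smallest p, at −0.45 (SE 0.14, limma adjusted p = 0.895). None of these genes passed the adjusted threshold in any of the 5 contrasts.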

How the data were processed

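Liver RNA libraries of 16 mice were prepared and sequenced by Novogene. The authors quantified reads against mm10 with kallisto in gene mode and tested differences between groups with sleuth. The versions of both tools are not given in the sources used here. The deposited signal is a length-adjusted value per gene that was scaled between libraries, close to TPM, as judged from its values and totals. It holds no counts, so the depth is unknown, counting intervals could not be given, and limma 3.58.1 (R 4.3.3) was used in place of a count model. Files held no columns of the authors' own comparisons, and 0 per-library columns were left unused.

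Genes at 1 or more in at least 4 libraries entered a fit on log2(value + 1) with 4 group means and a trended prior. The 5 contrasts were tested at a Benjamini-Hochberg adjusted p under 0.05 over all 12704 genes, two-sided. Log2 differences understate changes of low genes. Scripts were tested on simulated data. The members and lists were chosen with earlier results of these data known. Members named library by library were the 3 of highest mean and, per contrast, the 4 with the smallest p. Members given in addition were chosen by role or after their values were seen. For other pathway genes, the 4 with the smallest p per contrast were taken, and not all of these are printed. Alternatives were 3 other scalings, a filter at 5 and none, a pseudocount of 0.1, fits within the compared groups, library weights, the title series and leaving out libraries. Upstream sequences are from RefSeq on GRCm38.p6, and gene positions from GENCODE M21 on GRCm38.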

Additional observations from a re-analysis of the deposited data

Results flagged for a closer look

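In groups of 4 libraries, 18 of 160 tests found 1 library whose gap to the nearest of the others passed Dixon's 95% limit. The gap was taken as a share of the group's range on the log2 scale, and chance flags about 1 in 20 groups. The 160 tests cover the members and their mean in the same libraries, so they are not independent. The count of 18 therefore cannot be set against that rate. Of the 18, 8 fell on Mutant_HFD replicate 1, 4 on Mutant_Chow replicate 2, 3 on Control_HFD replicate 4, 2 on Control_HFD replicate 1 and 1 on Control_Chow replicate 2. No explanation was tested.

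Mutant_HFD replicate 1, the only mutant of the lower-numbered title series on HFD, was above the other 3 mutants for C9 (152 against 76.6 to 81.1) and Mbl1 (144 against 99.2 to 101). It was below them for Masp1 (31.6 against 71.2 to 77.2), F11 (51.7 against 100.3 to 105) and F13b (133 against 174 to 177). It was also below them for Serpind1 (219 against 279 to 288), C4bp (181 against 222 to 227) and Cpb2 (240.5 against 295 to 308).

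Control_HFD replicate 4, the only control of the higher-numbered series on HFD, was below the other 3 controls for C8g (542 against 780.1 to 823) and F12 (301 against 470.0 to 486), and above them for F11 (99.0 against 41.2 to 43.7). Control_HFD replicate 1 was above the others for Fgb (1386 against 937 to 998) and Fgg (3199.9 against 2008 to 2161).

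Mutant_Chow replicate 2 was above the other 3 mutants for Cpb2 (764 against 288 to 304), C4bp (451 against 239 to 257), F9 (146 against 91.7 to 98.1) and Hrg, which encodes histidine-rich glycoprotein (1221 against 794 to 851). Control_Chow replicate 2 was below the other controls for Cfi (355 against 418 to 433).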

How the results depend on the processing

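As deposited, no member passed the adjusted threshold, so none past it could change direction under the 27 alternative settings. The medians of the members near 0, on HFD and between diets in controls, took the other sign under some scalings, as given above, and the HFD median was 0.01 without Control_HFD replicate 1. In what follows, nominal members are those at an unadjusted limma p under 0.05, and called genes or members pass the adjusted threshold. The share of all genes at that unadjusted p was computed only as deposited. As reported, nominal members numbered 10 between genotypes on chow and 6 between genotypes on HFD, 6 and 9 between diets in controls and mutants, and 4 in the interaction, with 3, 2, 0, 0 and 0 called genes.

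Equal totals gave 3 nominal members on chow, 3 for diet in controls with 2 called genes, and 1 for the interaction. Equal totals without the 20 most abundant genes gave 4 on chow and 1 for the interaction, with an interaction median of −0.16. A filter at 5 gave 1 called gene on chow. Fits of only the compared groups gave 6 called genes and 4 nominal members on chow, 1 called gene on HFD, 4 for diet in controls, and 1 with 3 nominal members for diet in mutants. Library weights gave 6 called genes and 6 nominal members on chow, 3926 called genes with 12 called and 18 nominal members on HFD, 2264 with 9 and 10 for diet in controls, 9 called genes for diet in mutants and 14 nominal members for the interaction. With the title series as a term there were 1 called gene on chow, 1 nominal member on HFD and 0 for the interaction.

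Without Mutant_Chow replicates 1 and 2 there were 1 nominal member on chow (median 0.0851), 0 for diet in mutants (2 called genes, median −0.0468) and 0 for the interaction. Without Mutant_HFD replicate 1 and Control_HFD replicate 4 there were 2688 called genes with 8 called and 11 nominal members on HFD, 1886 with 6 and 11 for diet in controls, 3 called genes for diet in mutants, and 914 with 4 and 15 for the interaction. Leaving out 1 library at a time gave 1 to 14 called genes and 3 to 17 nominal members on chow. It gave 2 to 141 called genes, 0 to 1 called members and 1 to 9 nominal members on HFD, and 0 to 925, 0 to 2 and 2 to 9 for diet in controls. It gave 0 to 2 called genes and 1 to 16 nominal members for diet in mutants, and 2 to 12 nominal members for the interaction. The causes of these shifts were not tested.

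No paired analysis was possible because the labels give no replicate numbers, and those used here follow the order of the samples. With no counts, the precision that depth gives is unknown, most of all for C6, Pros1 and C8b, the members of lowest level.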
